A study of Homo sapiens with 6 samples.

Results

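The microRNA genes of 2 human colorectal cancer cell lines were examined in RNA bound to NAT10 and in the matching Input RNA. The members were chosen by their measured FPKM (fragments per kilobase of gene and per 1000000 reads): every gene with the biotype miRNA and a value above 0 in at least 1 of the 4 columns of the RIP table. This rule took 343 of 1879 microRNA genes in a table of 58302 genes, of which 29953 were above 0 in at least 1 of the same columns. Presence above 0 is therefore a property of the selection and not a result. Just inside the threshold stood 39 members with 1 read over the 4 libraries, and just outside it 14 microRNA genes at 0 in these columns but above 0 in an Input of the acRIP table.

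SW480 and DLD-1 are established colorectal cancer lines, here wild type and untreated in every group. RIP (RNA immunoprecipitation) recovered RNA from lysed cells with NAT10, and Input was total RNA of the same line. A further pull-down, acRIP, used an antibody against N4-acetylcytidine (ac4C) on fragmented RNA, and its peak lists were used only to look for peaks on microRNA genes. Each combination of line and assay was 1 library, so no comparison had a replicate and no test between conditions was made. All libraries came from a kit for long RNA.

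MicroRNAs are cut from hairpins in longer primary transcripts. The nuclear DROSHA and DGCR8 complex frees the hairpin, XPO5 exports it, DICER1 trims it to a duplex, and an Argonaute protein keeps one strand, whose bases 2 to 8 (the seed) pair with target mRNAs. NAT10 is the acetyltransferase that writes ac4C on ribosomal and transfer RNA and on mRNA. A read on a microRNA gene in a long RNA library can come from the primary transcript, from the hairpin or from any other RNA made at the same place, and the tables do not separate these. What else is annotated at each position was therefore recorded beside the values.

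RefSeq (GRCh38.p14) placed 336 of the 343 members and gave mature sequences for 312 of them, with 409 different seeds, 34 of them shared by 2 or more members. The sequences below belong to members on which the results turn, with the seed in capitals. The first set holds 4 microRNAs whose genes were lower in RIP than in Input in both lines.

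hsa-miR-3648: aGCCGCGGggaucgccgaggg
hsa-miR-4449: cGUCCCGGggcugcgcgaggca
hsa-miR-4521: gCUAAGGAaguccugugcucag
hsa-miR-3929: gAGGCUGAugugaguagaccacu

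The next 3 belong to genes that stood high in RIP in at least 1 line, and the last 2 to genes whose Input reads depended on the table.

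hsa-miR-1244: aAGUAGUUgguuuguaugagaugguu
hsa-miR-3189-3p: cCCUUGGGucugaugggguag
hsa-miR-3153: gGGGAAAGcgaguagggacauuu
hsa-miR-1282: uCGUUUGCcuuuuucugcuu
hsa-miR-3661: uGACCUGGgacucggacagcug

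The miR-200 family is known for holding epithelial cells in their epithelial state. It fell into 2 seed groups, AAUACUG in miR-200b, miR-200c and miR-429 and AACACUG in miR-200a and miR-141, and is shown because all 5 of its genes were detected.

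hsa-miR-200b-3p: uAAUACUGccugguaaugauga
hsa-miR-200c-3p: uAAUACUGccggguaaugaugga
hsa-miR-429: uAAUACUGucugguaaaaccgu
hsa-miR-200a-3p: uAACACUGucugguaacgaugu
hsa-miR-141-3p: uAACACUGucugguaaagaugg

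The largest group with 1 seed was let-7, a family known for restraining growth-promoting mRNAs, with 6 members over the mature forms let-7a, let-7d, let-7e and let-7f.

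hsa-let-7a-5p: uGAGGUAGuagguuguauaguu
hsa-let-7d-5p: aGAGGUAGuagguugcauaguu
hsa-let-7e-5p: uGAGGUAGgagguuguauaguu
hsa-let-7f-5p: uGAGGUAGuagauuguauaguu

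Before any comparison, 2 features of the libraries have to be stated. First, across 16196 protein-coding genes the RIP library labelled SW480 followed the Input labelled DLD-1 more closely (Pearson r of log2(FPKM + 1) 0.944) than the Input of its own label (0.871). The RIP library labelled DLD-1 likewise followed the Input labelled SW480 (0.951) more closely than its own (0.856). The summed FPKM of 10 colorectal epithelial markers split the same way, at 1400 in RIP SW480 and 1707 in Input DLD-1 against 3373 in Input SW480 and 2922 in RIP DLD-1. None of 9 markers of blood, stromal or endothelial cells reached 1 FPKM in any of these libraries. Each result is therefore given by library label, and with the Inputs exchanged between lines where this matters. Second, FPKM multiplied by the RefSeq gene length was a whole multiple of 1 constant per column for nearly all member values: 154 of 156 in RIP SW480, 173 of 175 in RIP DLD-1, 117 of 119 in Input SW480 and 89 of 90 in Input DLD-1, within 0.01 of a read. Reads were recovered with these lengths for 331 members. For the other 12 the length was chosen as the smallest that gave whole reads, so their reads may be a fraction of the true number. The scale implied totals of 29628966 reads for RIP SW480, 25189477 for RIP DLD-1, 14617145 for Input SW480 and 13498777 for Input DLD-1. On a hairpin of 80 bases 1 read was worth 0.422, 0.496, 0.855 and 0.926 FPKM in RIP SW480, RIP DLD-1, Input SW480 and Input DLD-1. Intervals below are exact 95% intervals of the counts and cover counting error only.

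Counting any read, RIP held more microRNA genes than Input, but far fewer reads on them. RIP SW480 had reads on 161 members and RIP DLD-1 on 178, against 120 in Input SW480 and 93 in Input DLD-1. Thinned to the shallowest of the 4 libraries, the expected numbers were 131, 156, 119 and 93. At 3 reads or more the numbers were 105, 121, 100 and 74 in the same order. At 10 reads or more they were 22, 49, 56 and 48, so the direction turned in SW480. Protein-coding genes above 0 numbered 15069, 13976, 13604 and 14264. The reads on members summed to 1168 in RIP SW480 and 1564 in RIP DLD-1, and to 3771 and 4425 in the Inputs of those labels. This came to 39.4 reads per 1000000 (RPM) against 258 in SW480 and 62.1 against 328 in DLD-1. The share in RIP was thus 6.54-fold lower in SW480 (95% interval 6.13 to 6.99) and 5.28-fold lower in DLD-1 (4.98 to 5.60), and with the Inputs exchanged between lines it was 8.32-fold and 4.16-fold lower.

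The 3 genes MIR3609, MIR3648-1 and MIR3687-1 carried 61.5% of the member reads in Input SW480 and 67.6% in Input DLD-1, but 9.59% and 9.78% in the RIP libraries. Without them the share in RIP was 2.79-fold lower in SW480 (2.57 to 3.02) and 1.90-fold lower in DLD-1 (1.76 to 2.04). With the Inputs exchanged it was 2.98-fold and 1.77-fold lower. Over the Inputs of the acRIP table it was 5.23-fold (4.85 to 5.64) and 3.05-fold lower (2.85 to 3.27), so its size depended on the Input table. The typical member rested on few reads: the median over detected members was 4 in both RIP libraries, 9 in Input SW480 and 11 in Input DLD-1. A single read made up the evidence for 30 and 27 members in RIP SW480 and RIP DLD-1 and for 15 and 11 in the Inputs. Only 18 members had reads in all 4 libraries, and 204 had them in just 1.

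**Figure D1:**
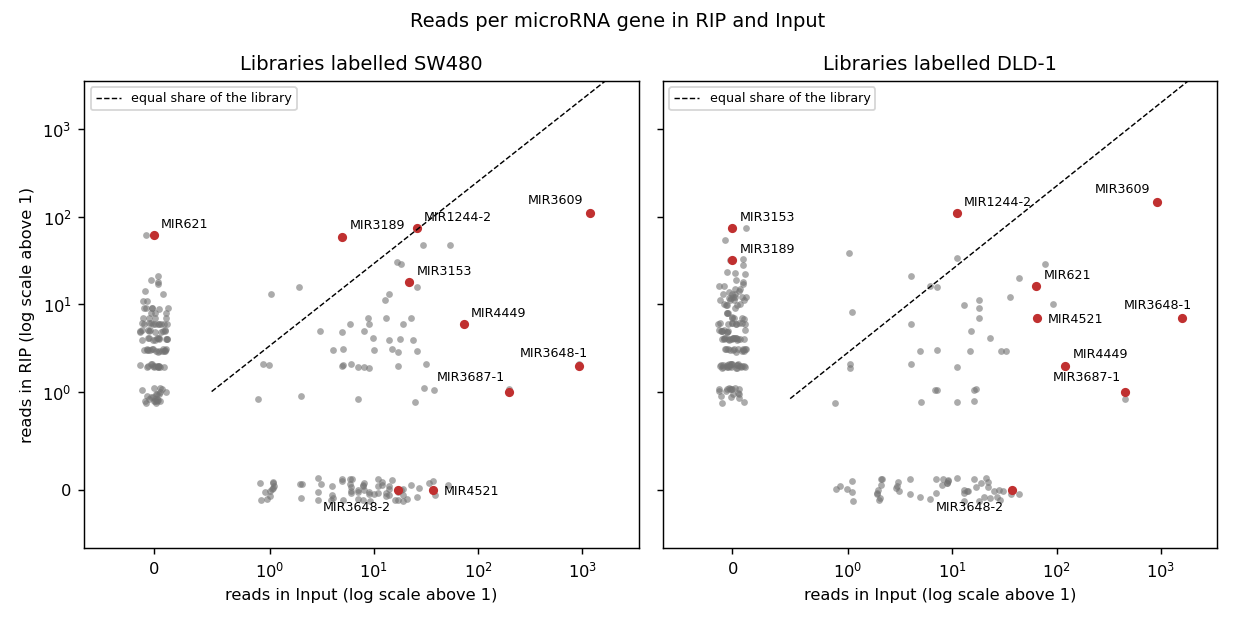
Reads per microRNA gene in RIP (vertical) against Input (horizontal), log scale above 1 read, for the libraries labelled SW480 and DLD-1; points are jittered slightly and genes at 0 in both are left out. The dashed line marks an equal share of both libraries; MIR3609, MIR3648-1, MIR3687-1 and MIR4449 lie far below it, and a column of genes at 0 in Input and a row at 0 in RIP hold most of the rest.

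Next, each member was called lower or higher when log2((RIP FPKM + 1)/(Input FPKM + 1)) was at or beyond 1 in size. In SW480, 93 members (27.1%) were at least 2-fold lower in RIP, beside 12.1% of all genes above 0 in the table, and 78 (22.7%) at least 2-fold higher, beside 12.7%. In DLD-1, 78 (22.7%) were lower, beside 16.1%, and 111 (32.4%) higher, beside 10.5%. Over these Inputs both shares of members were above those of all genes. They also were when the Inputs were exchanged: 79 members (23.0%) were lower in SW480, beside 9.75%, and 89 (25.9%) in DLD-1, beside 9.4%, and 87 (25.4%) and 93 (27.1%) were higher, beside 7.11% and 7.06%. Over the acRIP-table Inputs, described and scaled as given further on, the lower share in SW480 was 21.9%, beside 13.2%. In DLD-1 it was 12.2%, below the 17.3% of all genes. The higher shares there were 23.9%, beside 14.5%, and 32.7%, beside 12%. The median over members was 0 in each line because 113 members were at 0 in both RIP and Input of a line. Small nucleolar RNA genes leaned one way instead, with 52.2% lower and 11.6% higher in SW480 and 40.1% lower and 19.3% higher in DLD-1. Of small nuclear RNA genes 34.7% and 26.4% were lower in SW480 and DLD-1, and of genes with the biotype misc_RNA 30.3% and 24.7%. The excess of lower calls over all genes was thus not particular to microRNA genes.

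The calls in the 2 directions rested on different evidence. Of the 93 lower calls in SW480, 79 had a read ratio whose interval lay wholly below 1, and of the 78 in DLD-1 this held for 60. Of the higher calls, the interval lay wholly above 1 for 10 of 78 in SW480 and 38 of 111 in DLD-1. Input was at 0 reads for 75 of those 78 and 107 of those 111, and 19 and 27 of the higher calls rested on 3 reads or fewer.

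In both lines together 27 members (7.87%) were lower, beside 3% of all genes, and 20 (5.83%) higher, beside 2.42%. With the Inputs exchanged the counts were 26 lower, beside 3.46% of all genes, and 21 higher, beside 3.46%. Of the 27, 24 were also lower in both lines over the other label, and all 20 were also higher there. For 18 of the 20 both Inputs were at 0, so the exchange could not change their values. For 8 of the 27 both RIP libraries were at 0, so the exchange only swapped the values of the lines. Both comparisons reuse the same 4 libraries, so the second is not a replicate of the first. Over the Input of the same label, 29.0% of small nucleolar, 11.3% of small nuclear and 7.96% of misc_RNA genes were lower in both lines.

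Of the rDNA-spacer microRNAs, MIR3648-1 and MIR3687-1 had the lowest log2 values of all members in both lines, and MIR3648-2 stood among the other low ones. The gene of MIR3648-1 (chr21:8208473-8208652, 180 bases) lies inside the 45S ribosomal RNA unit RNA45SN2, starting 2485 bases after the unit's start and ending 979 bases before the 18S gene RNA18SN2. It had 2 reads in RIP SW480 and 933 in Input SW480, and 7 in RIP DLD-1 and 1612 in Input DLD-1. On the FPKM scale these were 0.375, 355, 1.54 and 663, so that both Inputs stood far above both RIP libraries. The read ratio was 946-fold lower in SW480 (95% interval 261 to 7819.6) and 429.7-fold lower in DLD-1 (208 to 1070.55), and the log2 differences were -8.01 and -8.03. MIR3648-2 (chr21:8986999-8987178), a second copy with no other gene at its position, had 0 reads in both RIP libraries, 17 in Input SW480 and 37 in Input DLD-1. Against a floor of 3 reads per library its RIP was at least 11.5-fold lower in SW480 and at least 23.0-fold lower in DLD-1. These bounds take the Input count as exact, and the exact interval of the read ratio placed RIP at 8.36-fold lower or more and 17.8-fold lower or more. The copies share sequence, and how reads were split between them is not known, so each copy's own level is uncertain.

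MIR3687-1, a second microRNA gene known from the same spacer, had 1 read in each RIP library, 198 in Input SW480 and 450 in Input DLD-1. Its read ratio was 401-fold lower in SW480 (71.2 to 15931) and 840-fold lower in DLD-1 (149.95 to 33240.2), with log2 differences of -7.17 and -8.37. The length of MIR3687-1 was chosen as the smallest that gave whole reads. Its reads may be a fraction of the true number, and the width of these intervals depends on that choice. With the Inputs exchanged the log2 values were -8.92 and -7.13 for MIR3648-1, -4.02 and -2.90 for MIR3648-2, and -8.46 and -7.08 for MIR3687-1, in SW480 and DLD-1. All 3 were therefore called lower whichever Input was taken. MIR3687-2 was at 0 in all 4 libraries and is no member, and the 4 copies of MIR6724, which also belong to the rDNA spacer, were at 0 throughout.

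MIR3609 was the member with most reads in 3 of the 4 libraries. It lies within TRRAP (chr7:98881650-98881729) and shares 33 bases with SCARNA28, a small Cajal body RNA gene of 194 bases. It had 109 reads in RIP SW480, 1189 in Input SW480, 145 in RIP DLD-1 and 930 in Input DLD-1, again with both Inputs above both RIP libraries. RIP was 22.1-fold lower in SW480 (18.2 to 27.2) and 11.97-fold lower in DLD-1 (10.04 to 14.4).

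MIR4449 and MIR4521 followed. MIR4449 (chr4:52712682-52712747) lies within DANCR, a host of small nucleolar RNAs, and had 6 reads in RIP SW480, 73 in Input SW480, 2 in RIP DLD-1 and 121 in Input DLD-1. This was 24.7-fold lower in SW480 (10.8 to 69.4) and 113-fold lower in DLD-1 (30.6 to 943), while DANCR itself had a log2 difference of 0.01 in SW480 and 0.25 in DLD-1. MIR4521 (chr17:8186945-8187004) begins on the last 3 bases of the serine tRNA gene TRS-GCT4-3. It had 0 reads in RIP SW480 and 37 in Input SW480, 25.0-fold lower against the floor and 19.3-fold lower or more by the exact interval. In RIP DLD-1 it had 7 and in Input DLD-1 65, 17.3-fold lower (7.95 to 44.8). Members that overlap an rRNA unit or a small structured RNA gene, even in part, were 3 in all (MIR3609, MIR3648-1 and MIR4521). They held 148 and 193 RPM in Input SW480 and Input DLD-1, and 3.75 and 6.31 in the RIP libraries.

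The other members of highest Input level were lower as well. These members, and MIR3609, MIR4449 and MIR4521 before them, were named for a high Input level, which favours lower values in RIP by its construction. MIR6835, within HMGA1, had 0 reads in both RIP libraries, 19 in Input SW480 and 31 in Input DLD-1. Against the floor this was 12.8-fold and 19.3-fold lower, and by the exact interval 9.46-fold and 14.8-fold lower or more. HMGA1 had log2 differences of 0.99 and -0.53. MIR151A, within PTK2, had 0 reads in both RIP libraries, 27 in Input SW480 and 44 in Input DLD-1. This was 18.2-fold and 27.4-fold lower against the floor, and 13.8-fold and 21.3-fold lower or more by the exact interval. MIR1206, within PVT1, had 3 reads in each RIP library, 17 in Input SW480 and 29 in Input DLD-1. For these 3 genes RIP was below the RIP-table Input in both lines. Over the acRIP-table Input of DLD-1, where MIR1206 had 0 reads, its log2 difference was 1.59 in place of -3.63. MIR3929 had 11 reads in RIP SW480, 13 in Input SW480, 10 in RIP DLD-1 and 93 in Input DLD-1. Its ratio was 2.40-fold lower in SW480, where the interval (0.990 to 5.91) included 1, and 17.4-fold lower in DLD-1 (9.03 to 37.4). MIR4664, within FAM83H, had 47, 54, 29 and 78 reads in the same order, 2.33-fold lower (1.55 to 3.52) and 5.02-fold lower (3.24 to 7.98).

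Position was then compared across all members. The 215 members within a protein-coding gene on the same or an unknown strand made up 22.9% and 17.1% of the member reads in Input SW480 and Input DLD-1, and 52.4% and 45.5% in RIP SW480 and RIP DLD-1. Their summed RPM were nevertheless lower in RIP, at 20.7 against 59.1 in SW480 (ratio 0.349, 0.315 to 0.388) and 28.2 against 56.2 in DLD-1 (0.503, 0.453 to 0.558). The 12 members within pseudogenes had ratios of 1.41 (1.03 to 1.95) in SW480 and 1.17 (0.895 to 1.55) in DLD-1, and the latter interval includes 1. With the Inputs exchanged these were 0.911 (0.692 to 1.21) and 1.81 (1.34 to 2.496), so the direction in SW480 turned. These ratios rest largely on MIR1244-2 and MIR621. MIR1244-2 had 74 of the 160 class reads in RIP SW480 and 110 of 175 in RIP DLD-1. MIR621, which overlaps the coding gene SLC25A15 and the pseudogene TPTE2P5, had 62 and 16 there, and 64 of 80 in Input DLD-1. The 29 members opposite a gene of the other strand differed between lines, at 0.249 (0.180 to 0.341) in SW480 and 3.54 (2.27 to 5.76) in DLD-1. Exchanged Inputs gave ratios of 1.21 (0.737 to 2.05) in SW480 and 0.729 (0.570 to 0.933) in DLD-1, and the acRIP-table Inputs gave 0.0208 (0.0158 to 0.0269) and 0.0599 (0.0502 to 0.0710). The direction in each line and the difference between lines thus depended on the Input taken. Members with no other gene at their position, 42 in all, had 7.11 and 15.5 RPM in the Inputs and 3.92 and 6.19 in RIP. Members within coding genes were called more often than their hosts in both directions: 58 of 141 members and 10 of 141 hosts were lower in SW480, and 48 of 135 members and 20 of 135 hosts in DLD-1. Higher calls were made for 48 members and 24 hosts in SW480 and for 65 members and 20 hosts in DLD-1. The 141 and 135 are parts of the 215 members of this class. A member with few reads passes 2-fold in either direction by counting error more readily than a longer host. The comparison therefore does not separate hairpin from host, and the difference was not tested.

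**Figure D2:**
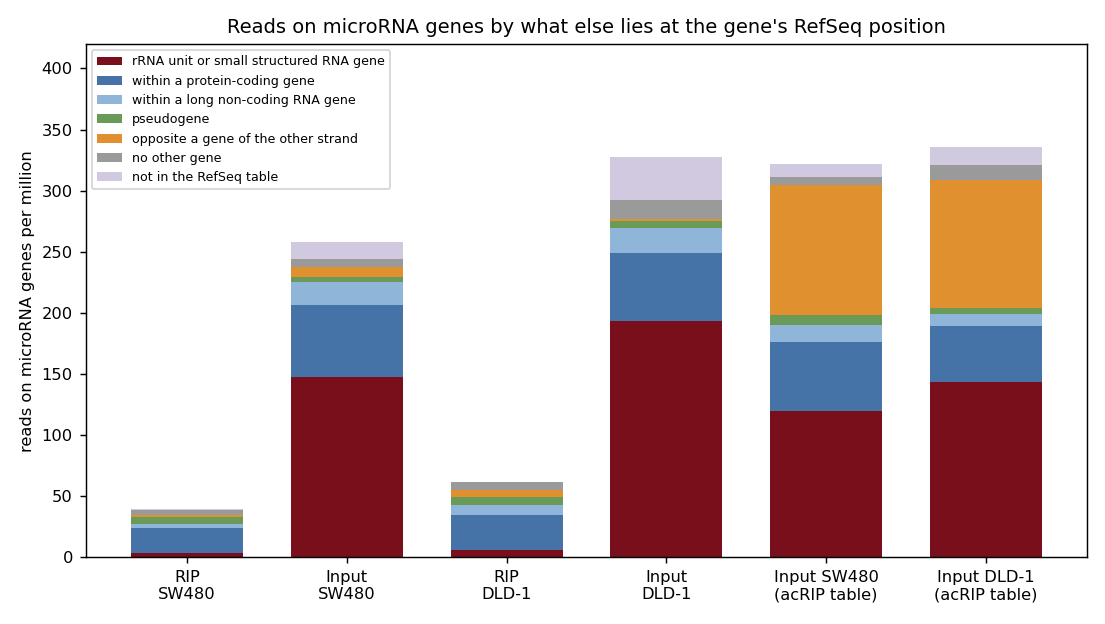
RPM on all microRNA genes of the table in each library, stacked by what RefSeq has at the gene's position; the bars on the right are the Inputs as listed in the acRIP table. The dark red part, genes that overlap an rRNA unit or a small structured RNA gene even in part, falls from 148 and 193 RPM in the Inputs to 3.75 and 6.31 in RIP. The orange part, genes opposite a gene of the other strand, is tall in the acRIP table alone.

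Few microRNA genes with reads in Input stood higher in RIP. Among the 33 members at 1 FPKM or more in both Inputs, a filter that favours lower values in RIP by its construction, 29 were below Input in both lines and 1, MIR1244-2, above. The share of all genes below Input in both lines under this filter is not given here. The 29 therefore describe these 33 members and are no result about microRNA genes against other genes. MIR1244-2 (chr5:118974586-118974670) lies within PTMAP2, a pseudogene of prothymosin alpha. It had 74 reads in RIP SW480 and 26 in Input SW480, a ratio of 1.40 (0.887 to 2.29), and 110 in RIP DLD-1 and 11 in Input DLD-1, a ratio of 5.36 (2.88 to 11.05). The interval includes 1 in SW480 and not in DLD-1, while the PTMAP2 row had log2 differences of -0.70 and 0.56. Over the acRIP-table Input, with 64 reads in SW480 and 15 in DLD-1, the log2 difference of MIR1244-2 was -1.64 in SW480 and 1.11 in DLD-1, so its direction in SW480 turned. Other copies of this name lie in PTMA (MIR1244-1) and PTMAP4 (MIR1244-3). How reads were split between the copies is not known, so the level of MIR1244-2 itself is uncertain.

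MIR3189 (chr19:18386562-18386634) lies within GDF15, a stress-induced cytokine gene. It had 59 reads in RIP SW480 and 5 in Input SW480, a ratio of 5.82 (2.36 to 18.6). In RIP DLD-1 it had 32 and in Input DLD-1 0, 5.72-fold higher against the floor and 4.39-fold higher or more by the exact interval. GDF15 was higher in RIP in SW480 (log2 1.44) and lower in DLD-1 (-1.01), and its FPKM was 828 in RIP SW480, 304 in Input SW480, 405 in RIP DLD-1 and 820 in Input DLD-1. The host thus followed the crossed pairing of the libraries, and MIR3189 was higher in RIP over either RIP-table Input, with log2 values of 4.82 and 1.69 over the other label. Over the acRIP-table Input of DLD-1, which had 10 reads on it, its log2 difference was -0.05, so the call and the bound in DLD-1 were lost.

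Of the 20 members called higher in both lines, 18 had no read in either Input. The clearest of these were MIR4737 and MIR5087, picked after their values were seen. MIR4737 had 14 reads in RIP SW480 and 16 in RIP DLD-1, 2.30-fold and 2.86-fold higher against the floor. MIR5087 had 13 and 17 reads, 2.14-fold and 3.04-fold higher against the floor. These values take the RIP counts as exact and are not limits of an interval. MIR320A, which gives a microRNA of broad expression, had 16 reads in RIP SW480, 2 in Input SW480, 33 in RIP DLD-1 and 0 in Input DLD-1. Its ratio was 3.95 in SW480, with an interval (0.928 to 35.4) that includes 1. In DLD-1 it was 5.89-fold higher against the floor and 4.53-fold higher or more by the exact interval. Its length was chosen as the smallest that gave whole reads, so its reads may be a fraction of the true number. The Inputs were shallower than RIP, and 0 reads in an Input allowed up to 3.

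The 2 lines were then set against each other. Opposite calls were made for 30 members (8.75%), beside 6.23% of all genes, over the Input of the same label. With the Inputs exchanged 22 members (6.41%) had opposite calls, beside 0.384% of all genes. The crossing of Inputs removed most opposite calls over all genes, while the count among microRNA genes went from 30 to 22. These were largely different genes, as most of the 30 lost their opposite call. Those that kept one, MIR621 and MIRLET7F1 among them, had it with the directions exchanged. The members' own libraries were little related in any pairing. Pearson r of log2(FPKM + 1) over the 343 members was 0.15 and 0.14 for RIP SW480 with the Inputs SW480 and DLD-1, and 0.08 and 0.19 for RIP DLD-1 with the Inputs DLD-1 and SW480. These are descriptions across genes selected on the same values, most at 0 in 1 library of the pair.

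**Figure D3:**
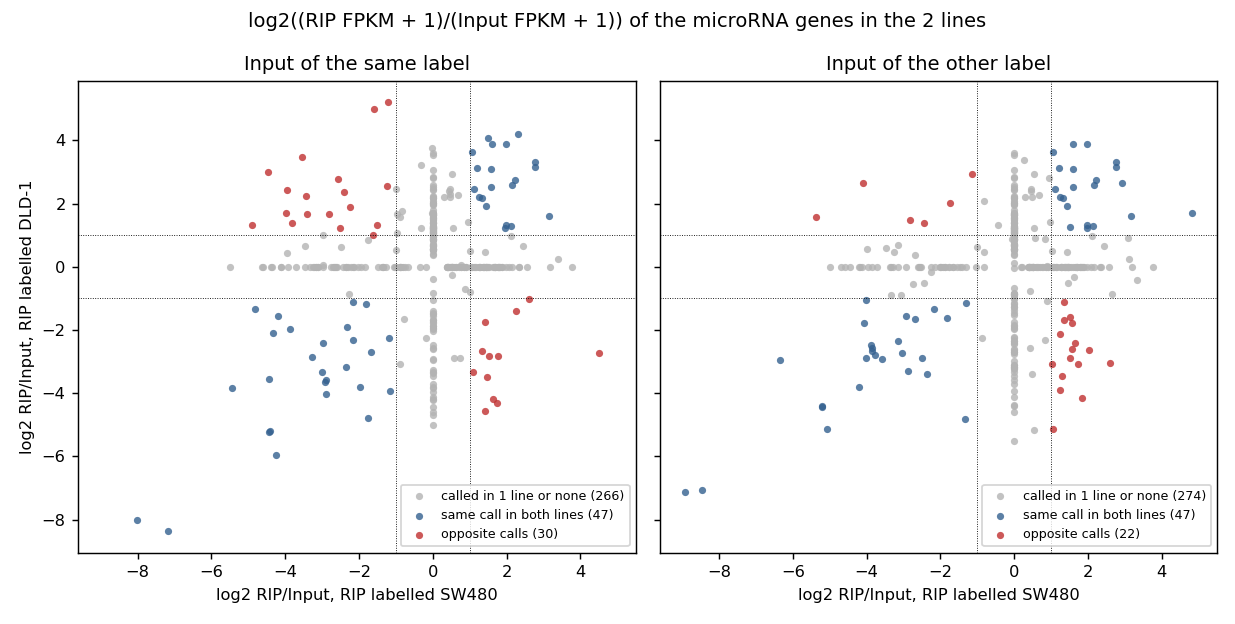
log2((RIP FPKM + 1)/(Input FPKM + 1)) of each microRNA gene with RIP SW480 on the horizontal and RIP DLD-1 on the vertical axis, over the Input of the same label (left) and of the other label (right); dotted lines mark 2-fold. Opposite calls (red) number 30 on the left and 22 on the right, and 47 genes have the same call in both lines (blue) in each panel.

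Among single genes, MIR196A1, of the HOXB locus, had 16 reads in RIP SW480, 26 in Input SW480, 54 in RIP DLD-1 and 0 in Input DLD-1. Its log2 difference was -1.60 in SW480 and 4.98 in DLD-1, and 3.12 and 0.26 over the other label. MIR3153, within CKS2, had 18, 22, 74 and 0 reads in the same order, with log2 differences of -1.20 and 5.20, and 3.07 and 0.93 over the other label. MIR621, within SLC25A15 and overlapping the pseudogene TPTE2P5, showed the reverse, with 62 reads in RIP SW480, 0 in Input SW480, 16 in RIP DLD-1 and 64 in Input DLD-1. Its log2 difference was 4.51 in SW480 and -2.73 in DLD-1, while SLC25A15 had 1.09 and -2.04. Over the other label MIR621 had -1.14 and 2.93, so its direction turned in both lines. MIR590, within EIF4H, had 48, 30, 38 and 1 reads, with log2 differences of -0.32 and 3.23, and 3.33 and -0.42 over the other label. MIR4292, within RABL6, had 19, 0, 16 and 7 reads, with 3.40 and 0.26, and 0.27 and 3.39 over the other label.

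All 5 miR-200 genes were detected, none of them in RIP SW480. MIR200A had 19 reads in Input SW480, 10 in RIP DLD-1 and 0 in Input DLD-1. MIR200B had 14 in Input SW480, 34 in RIP DLD-1 and 11 in Input DLD-1. The seed group of miR-200b also held MIR429 and MIR200C, with 22 and 19 reads in RIP DLD-1 and 0 in both Inputs. MIR141 had 6 reads in Input SW480 and 10 in RIP DLD-1. The family summed to 39 reads in Input SW480, 11 in Input DLD-1, 0 in RIP SW480 and 95 in RIP DLD-1, so 3 of 5 were called lower in SW480, where 12.1% of all genes were, and 4 of 5 higher in DLD-1, where 10.5% were. When the Inputs were exchanged 1 of 5, MIR200B, was lower in SW480. In DLD-1 MIR200C and MIR429 were then higher, MIR200A was lower (log2 -1.51) and MIR141 stood at -0.04. MIR200B was the member of the family with reads in both libraries labelled DLD-1, and its ratio there was 1.66 (0.820 to 3.62), an interval that includes 1. Over the acRIP-table Inputs 1 of 5, MIR200A, was lower in SW480 and all 5 were higher in DLD-1. MIR200B had 0 reads in both of those Inputs, and its log2 difference in DLD-1 went from 0.67 to 3.93.

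**Figure D4:**
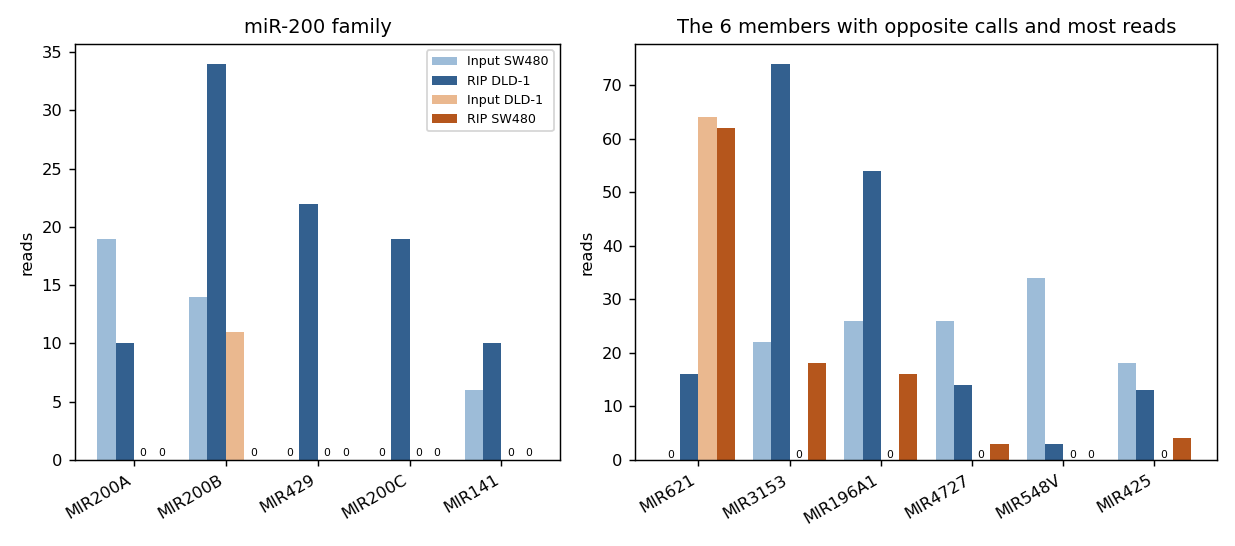
Reads in the 4 libraries for the 5 miR-200 genes (left) and for the 6 members with opposite calls and most reads (right); bars start at 0 and a printed 0 marks no read. The miR-200 genes have reads in Input SW480 and RIP DLD-1 and none in RIP SW480, while MIR621 is highest in Input DLD-1 and RIP SW480.

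The remaining lists of known microRNAs were thinly covered. Of 12 let-7 and miR-98 genes, 6 were detected. MIRLET7D had 13 reads in RIP SW480, 14 in Input SW480, 1 in RIP DLD-1 and 0 in Input DLD-1, and MIRLET7F1 had 4, 14, 6 and 0. The other 4 had at most 4 reads in any library. Of 15 genes of the miR-17-92 clusters, which are known to drive proliferation, 3 were detected, all in the MCM7 gene. MIR25 had 1 read in RIP SW480, 30 in Input SW480, 3 in RIP DLD-1 and 7 in Input DLD-1 and was called lower in both lines (log2 -4.18 and -1.57), while MCM7 had 0.15 and -0.80. Its read ratio in DLD-1 was 0.230 with an interval (0.0383 to 1.01) that includes 1, and over the acRIP-table Input of DLD-1, with 0 reads, its log2 difference turned to 1.27. MIR106B had 16 reads in Input DLD-1 alone, and MIR93 had 5 reads in RIP SW480 and 5 in Input SW480. Of 6 genes of the miR-23, miR-27 and miR-24 clusters, MIR23B had 2, 8, 0 and 17 reads, MIR27B 15 in RIP DLD-1 alone and MIR23A 2 there alone. Of 8 miR-15 and miR-16 family genes, MIR15B had 2 reads in Input SW480 and MIR503 had 4 in RIP SW480.

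Of 10 microRNA genes tied to colorectal cancer, MIR194-1 was the one detected, with 20 reads in Input DLD-1. MIR21, MIR31, MIR143 and MIR145 were listed at 0 in all 4 libraries, as were 1536 of 1879 microRNA genes.

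Genes of the processing machinery, none of them members, were looked at as well. Of 17 such genes, 2 were lower and 0 higher in RIP in SW480, beside 12.1% and 12.7% of all genes, 0 lower and 2 higher in DLD-1, beside 16.1% and 10.5%, and 16 were at 1 FPKM or more in every library. The 2 lower ones were DROSHA (log2 -1.22) and SRRT (-1.54), a partner of the complex, and in DLD-1 they stood at 0.05 and -0.12. The 2 higher ones in DLD-1 were RAN (1.48), which drives nuclear export, and DGCR8 (1.12), which stood at 0.57 and -0.76 in SW480. Over the other label DROSHA had -0.40 and SRRT -0.92 in SW480, and RAN 1.11 and DGCR8 0.00 in DLD-1, so RAN was the one of the 4 that kept its call.

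Both Inputs were also listed in the acRIP table, where the same sample labels apply and the implied totals were 11007688 and 10817661 reads. For SW480, 76 members had reads in both tables, 35 of them the identical number. For DLD-1, this was 44 and 18. Against the other line's Input in the acRIP table, 24 members were shared in each line and 1 had the same number. The 2 tables were thus treated as 2 counts of 1 Input library and not as replicates. Members with reads in the RIP table alone were 44 in SW480 and 49 in DLD-1, with at most 38 and 29 reads.

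The counts differed most for genes opposite a gene of the other strand. MIR1282, opposite SERF2, had 0 reads in both RIP-table Inputs and 684 and 798 in the acRIP-table Inputs of SW480 and DLD-1. MIR3661, opposite PPP2CA, had 0 and 0 against 218 and 190, and MIR6126, opposite NAA60, 0 and 0 against 53 and 60. These 3 were picked after their values were seen. Over all 164 microRNA genes of this position class the RPM were 8.28 and 1.70 in the RIP-table Inputs and 107 and 104 in the acRIP-table Inputs, while genes within a coding gene had 59.1 and 56.2 against 56.5 and 46.1. Of 21 microRNA genes with more than 3 reads in an acRIP-table Input and 0 in the RIP-table Input of the same label, 12 were of the opposite class and 14 had a gene on the other strand. How each table treated strand is not given in the sources used here, and its part in the difference was not tested. For MIR1282, called higher in both lines with 6 and 12 RIP reads, the acRIP-table Inputs turned the log2 differences from 1.59 and 2.52 to -8.14 and -7.51.

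**Figure D5:**
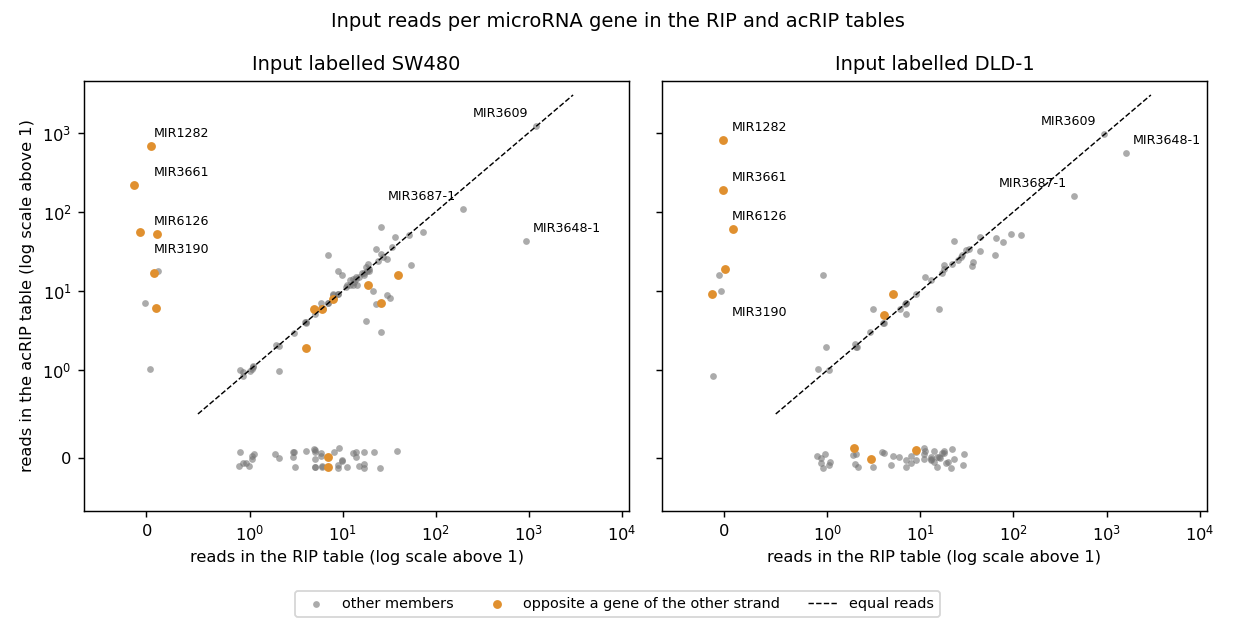
Input reads per member in the acRIP table (vertical) against the RIP table (horizontal), log scale above 1 read, for the Inputs labelled SW480 and DLD-1; genes at 0 in both are left out and points are jittered slightly. Of the genes with reads in both, 45 of 76 in SW480 and 24 of 44 in DLD-1 lie within 10% of equal reads, MIR3609 among them, whereas MIR1282 and MIR3661, opposite a gene of the other strand, are at 0 in the RIP table.

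The rDNA-spacer copies also differed between tables. MIR3648-1 had 933 and 1612 reads in the RIP-table Inputs of SW480 and DLD-1 and 43 and 547 in the acRIP-table Inputs. MIR3687-1 had 198 and 450 against 108 and 160, MIR3648-2 17 and 37 against 16 and 23, and MIR3609 1189 and 930 against 1226 and 955. Over the acRIP-table Inputs, scaled by the median ratio of the 2 tables, the log2 differences in SW480 and DLD-1 were -4.49 and -7.31 for MIR3648-1, -7.16 and -7.72 for MIR3687-1 and -3.60 and -4.16 for MIR3648-2. The 3 copies with reads in the RIP table were thus at least 2-fold below either Input table in both lines. The scaling multiplied the acRIP-table Inputs by 1.373 in SW480 and 1.43 in DLD-1, and every log2 value and call over them carries it. A gene with equal reads in both tables had a lower log2 value over the acRIP-table Input. MIR151A in SW480, with 27 reads in each, went from -4.43 to -5.26. A shift between tables is therefore not by itself a difference in reads. MIR3687-2 had 0 reads in SW480 and 1 in DLD-1 of the acRIP-table Inputs. Over the acRIP-table Inputs 15 members (4.37%) were lower in both lines, beside 4.97% of all genes, 19 (5.54%) higher, beside 3.16%, and 28 (8.16%) called in opposite directions, beside 6.33%, and 11 of the 27 and 14 of the 20 members called over the RIP-table Inputs kept their call. Of the members named by rule, 14 of 20 lower calls in SW480 and 11 of 16 in DLD-1 were kept over the acRIP-table Inputs, as were 5 of 6 and 12 of 15 higher calls. After exchange of the RIP-table Inputs the same counts were 14 and 13 lower and 4 and 8 higher.

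Finally, the ac4C peak lists were searched. None of the 9536 SW480, 13964 DLD-1 and 15622 pooled peaks was assigned to a gene of the biotype miRNA. By position and strand, peaks of any list covered 27 of 1562 hairpins in RefSeq, in each case a peak assigned to an exonic part of a longer gene. The FPKM table lists 25 of them, and 2, MIR1307 and MIR4761, were members. The other 23 were at 0 in all 4 libraries although 20 of their host genes were at 1 FPKM or more in both Inputs. MIR1244-1, under a peak in PTMA, was one of them, at 0 while PTMA had 239 FPKM in RIP SW480, 710 in Input SW480, 428 in RIP DLD-1 and 376 in Input DLD-1. A value of 0 for a hairpin within an exon therefore stood beside abundant RNA from the same position, and how reads shared by 2 genes were assigned is not given in the sources used here. The ac4C-type motif CNNCNNCNN occurred on the given strand in 63.2% of 277 member hairpins, 56.7% of 1283 hairpins not detected and 57.9% of all, at median lengths of 82, 80 and 80 bases.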

How the data were processed

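RIP, acRIP and Input libraries of SW480 and DLD-1 cells were 1 each. Per the labels, the submitters' processing notes name cutadapt 2.5 and HISAT2 2.1.0; the counting tool, annotation release and strand setting are not given in the sources used here. The authors deposited FPKM per gene for RIP and Input in 1 table and for the Inputs again in the acRIP table, whose unit is not named and was read as FPKM from its values. Peak lists give the fold enrichment ratio of acRIP over Input, deposited by the authors per line and pooled. The 3 columns of the authors' own IP/Input ratios were not used.

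Reads were recovered as FPKM times gene length over the constant of the column, with RefSeq GRCh38.p14 lengths for 331 members. For 12 members the smallest length from 30 to 300 bases that gave whole reads (tolerance 0.01) was taken, so their reads may be a fraction of the true number. Ratios were log2((RIP + 1)/(Input + 1)) of FPKM, a scale that understates changes of low genes, and a call was 2-fold. For these ratios the acRIP-table Inputs were multiplied by the median ratio of the 2 tables, 1.373 in SW480 and 1.43 in DLD-1. Reads and ratios of reads were not scaled. Read ratios used exact 95% intervals conditional on the sum; a library at 0 was given a floor of 3 reads, with the other count taken as exact. With 1 library per group there was no test. Hairpin positions and overlaps came from RefSeq gene spans (no exons given); 99.4% of pooled peaks whose host is in RefSeq overlapped its span. The steps were tested on simulated data (Python 3, pandas, NumPy, SciPy).

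Named were every MIR3648 and MIR3687 copy, the 10 members highest in mean Input and in mean RIP FPKM, the 5 highest and 5 lowest of the smaller log2 ratio among same-sign members at 1 FPKM or more in both Inputs, and detected members of fixed lists; others are named as chosen after their values were seen, among them the hairpins under peaks, MIR1282, MIR425, MIR548V and MIR4727. Members and lists were chosen with earlier results of these data known.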

Additional observations from a re-analysis of the deposited data

Results flagged for a closer look

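Of 39 members named by rule, 6 were called in opposite directions in the 2 lines. The difference between the log2 RIP/Input values of SW480 and DLD-1 was -6.58 for MIR196A1, -6.41 for MIR3153, -6.38 for MIR200A, -4.78 for MIR141 and -4.14 for MIRLET7F1, and 7.24 for MIR621. With 1 library per line and assay these differences were not tested. In 5 of the 6, RIP was below Input in SW480 and above it in DLD-1, and in those 5 Input DLD-1 was at 0 reads. With the Inputs exchanged MIR621 (-1.14 and 2.93) and MIRLET7F1 (1.35 and -1.68) had opposite calls with the directions exchanged, and MIR196A1, MIR3153, MIR200A and MIR141 had no opposite calls.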

How the results depend on the processing

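No paired analysis was possible because the labels give no replicate numbers and no result came from a test; a fit of RIP against Input with the 2 lines as blocks was not run. With 1 library per group no library could be left out. Filtering out members that overlap an exon of another gene was not run, as no exon annotation was used here. Of 122 values under an alternative, 89 stayed close to the value reported. Close meant within 1.5-fold for a count and within 0.1 for a median log2 ratio. For a copy it meant within the counting interval, or within 0.5 where RIP was at 0 reads. None of the 30 log2 values of the rDNA-spacer copies turned its sign, and the others were counts and medians. Single named members did turn, as given beside their values. The count lower in SW480 (93) was 47 over the other line's acRIP-table Input, and the count lower in DLD-1 (78) was 42 over the acRIP-table Input. The count lower in both lines (27) was 15 over the acRIP-table Input, 17 over that of the other line and 16 at 4-fold. Higher calls depended most on the setting: at 4-fold they were 20 in SW480, 50 in DLD-1 and 5 in both, by the interval of the read ratio 10, 38 and 3, and with Input at 1 FPKM or more, which removes genes at 0 in Input, 2, 2 and 0. A pseudocount of 0.1 gave 32 in both. Among the 42 members in no other gene, chosen after seeing the data and fewer by construction, 7, 11 and 2 were lower and 11, 13 and 3 higher in SW480, DLD-1 and both. The median log2 ratio of 0 became -2.63 in SW480 and -2.82 in DLD-1 with Input at 1 FPKM or more, and -0.18 in SW480 when centred on coding genes, whose medians were 0.18 and 0.07. With Input at 1 FPKM or more the medians of all genes were -0.13 in SW480 and -0.33 in DLD-1. Those of small nucleolar RNA genes were -2.46 and -1.73, of small nuclear RNA genes -1.94 and -2.16, and of misc_RNA genes -2.24 and -2.17. The low median was thus not particular to microRNA genes. At 3 reads or more RIP SW480 held 105 members. MIR3648-1 was at -4.49 in SW480 over the acRIP-table Input and -3.60 in DLD-1 over that of the other line. MIR3648-2 was at -6.04 and -7.26 with a pseudocount of 0.1, at -4.02 and -2.90 with the Inputs exchanged, and in SW480 at -3.60 over the acRIP-table Input and -4.16 over that of the other line. No equal copies of 1 name were found, so counting them once changed nothing, and those values were among the 89 by construction. At a median of 4 reads per detected member in RIP, a single member's ratio is limited by counting error.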
